A study of Homo sapiens with 13 samples.

Results

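CHST15, HUNK and MOB3A are 3 of the 18404 genes measured in SW480, a human colorectal carcinoma cell line, after 6 h with an iron chelator. They were chosen by their measured change: in an analysis of the same arrays, each was called higher than DMSO under DFO, under Deferasirox and under OICR623. Their differences from DMSO are therefore given below as a description, without a test. The study placed 13 Affymetrix Human Gene 1.0 ST arrays in 4 groups: DFO at 100 mM (n = 4), Deferasirox at 50 mM (n = 3), OICR623 at 10 mM (n = 2) and the solvent DMSO at 0.1% (n = 4). DFO (deferoxamine) and Deferasirox are iron chelators used in patients, and OICR623 is known here by its code name alone. The doses are printed as labelled. They are high for cultured cells, and whether another unit was meant is not settled by the labels. The replicates are described as independent experiments on this 1 cell line, and no pair of compounds was tested at a matched dose. The arrays measured bulk RNA, so a change in a share of the cells and a change in RNA per cell cannot be told apart.

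The 3 genes act in different places in the cell. CHST15 encodes a Golgi sulfotransferase that adds a further sulfate to N-acetylgalactosamine already sulfated in chondroitin sulfate, which gives the highly sulfated form called chondroitin sulfate E on proteoglycans. HUNK encodes a serine/threonine kinase related to AMPK, the energy-sensing kinase, and was first described in mouse mammary tissue. MOB3A encodes a small adaptor of the MOB family. The MOB1 members of that family bind and activate the LATS and NDR kinases of the Hippo pathway, and the partners of the MOB3 members are less settled. Iron chelation removes a cofactor of the prolyl hydroxylases that mark hypoxia-inducible factor (HIF) for degradation. HIF binds DNA at a short core motif, the hypoxia response element (HRE).

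The promoters of all 3 genes are shown because the genes were higher together in every treated group. The sequences are those of RefSeq (build GRCh38.p14), from 250 bases before the start site to the first 50 bases of the transcript, read 5′ to 3′ on the strand of the gene. Capitals mark the HRE core, searched as ACGTG or GCGTG on both strands. CHST15 lies at chr10:124093549-124093848 (minus strand), HUNK at chr21:31872770-31873069 (plus strand) and MOB3A at chr19:2096277-2096576 (minus strand).
CHST15: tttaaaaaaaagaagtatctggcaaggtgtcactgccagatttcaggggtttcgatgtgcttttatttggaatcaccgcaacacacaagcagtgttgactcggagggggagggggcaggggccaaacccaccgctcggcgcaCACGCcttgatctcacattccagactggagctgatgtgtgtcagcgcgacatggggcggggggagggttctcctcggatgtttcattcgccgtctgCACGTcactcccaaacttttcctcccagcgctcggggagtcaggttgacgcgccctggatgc
HUNK: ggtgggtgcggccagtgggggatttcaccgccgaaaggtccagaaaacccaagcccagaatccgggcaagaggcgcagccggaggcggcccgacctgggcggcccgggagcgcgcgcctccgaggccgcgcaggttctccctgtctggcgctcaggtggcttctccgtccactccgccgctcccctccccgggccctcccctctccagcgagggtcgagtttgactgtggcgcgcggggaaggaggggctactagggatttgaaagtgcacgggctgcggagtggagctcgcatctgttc
MOB3A: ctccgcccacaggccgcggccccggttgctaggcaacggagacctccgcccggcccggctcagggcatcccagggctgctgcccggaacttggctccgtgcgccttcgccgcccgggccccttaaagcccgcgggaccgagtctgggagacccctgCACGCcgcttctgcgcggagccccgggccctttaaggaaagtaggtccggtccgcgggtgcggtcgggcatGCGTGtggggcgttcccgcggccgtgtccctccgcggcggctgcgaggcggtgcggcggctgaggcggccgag

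CHST15 held 2 cores, both read on the opposite strand, at bases -108 to -104 and -12 to -8 from the start site. MOB3A also held 2, at -94 to -90 on the opposite strand and at -23 to -19 on its own strand. HUNK held 0 in this window. Of 14230 promoters of measured genes with the same length, 56.7% held at least 1 core and 28.8% held at least 2. The longer E-box CACGTG contains the core ACGTG on both strands, so each E-box was counted as 2 cores. It was found in 8.88% of these promoters, all of them within the 28.8%, and in 0 of the 3. The 2 cores of CHST15 and of MOB3A are separate sites, so the 28.8% is not a like measure for them. GC content was 56.7% for CHST15, 69.7% for HUNK and 75.7% for MOB3A, beside a median of 63% over the 14230. These matches describe letters and were not tested as binding sites.

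Array medians fell into 3 levels that crossed the groups. The high level (medians 7.17 to 7.19) held DFO 1 and DMSO 1, and the low level (6.52 to 6.55) held DFO 4, Deferasirox 3 and DMSO 4. The other 8 arrays, 2 of each group, made up the middle level (6.64 to 6.69). Correlations lay between 0.9948 and 0.9981 for pairs of arrays in 1 level, against 0.9801 to 0.9938 for pairs from different levels. Differences below come from a limma fit across all genes with the level as a block. The 3 comparisons with DMSO share the same 4 DMSO arrays, so likeness among them is no independent evidence. Among markers of intestinal epithelium, the keratin genes KRT18 (13.02) and KRT8 (12.67) and EPCAM (9.64) had high mean log2 signals, whereas CDH1 (5.52), KRT20 (5.28) and CDH17 (4.37) were low. Means of markers of other cell types lay between 3.27 (LUM) and 7.77 (COL1A1) for fibroblasts, 5.16 (KDR) and 7.52 (CLDN5) for endothelium and 3.38 (PTPRC) and 6.20 (CD14) for leukocytes, and the values carry no detection calls. Of all markers, limma called KRT19 higher (0.35 under DFO, adjusted p = 0.014, and 0.33 under Deferasirox, adjusted p = 0.030) and CDX2, an intestinal transcription factor gene, lower (-0.49, adjusted p = 0.0063, and -0.77, adjusted p = 0.00068). Without the block none of these 4 calls remained (adjusted p = 1 and 0.939 for KRT19, 1 and 0.661 for CDX2), and KRT19 stood at 0.0699 under Deferasirox. Their part in the results below was not tested.

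CHST15 (transcript cluster 7936856) was more than 2-fold higher with every compound. Its log2 signal was 10.26, 10.36, 10.31 and 10.14 on the DFO arrays, 10.46, 10.44 and 10.34 on the Deferasirox arrays and 10.17 and 9.90 on the OICR623 arrays, against 8.90, 8.48, 8.41 and 8.32 on the DMSO arrays. Every treated array lay above every DMSO array, and the highest DMSO value was that of DMSO 1, from the high level. The genes were chosen as higher on these arrays, so such separation, here and for HUNK and MOB3A below, largely follows from the choice. The share of all genes that separate in this way is not given here. With the level as a block the log2 difference from DMSO was 1.74 under DFO (SE 0.09), 1.95 under Deferasirox (SE 0.10) and 1.52 under OICR623 (SE 0.11). These are fold differences of 3.34 (95% interval 2.93 to 3.82), 3.85 (3.32 to 4.47) and 2.88 (2.42 to 3.42). In order of its differences CHST15 stood 7th highest of 18404 genes under DFO, 6th under Deferasirox and 7th under OICR623.

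MOB3A (transcript cluster 8032410) was also more than 2-fold higher with each compound. Its log2 signal was 11.14, 11.33, 11.33 and 11.46 under DFO, 11.44, 11.36 and 11.46 under Deferasirox and 11.10 and 11.02 under OICR623, against 10.15, 9.96, 10.00 and 9.86 under DMSO. The treated and DMSO arrays did not overlap, and both OICR623 arrays lay below all DFO and Deferasirox arrays. With so few OICR623 arrays, such an order among the compounds can arise by chance. The log2 difference from DMSO was 1.32 under DFO (SE 0.08), 1.42 under Deferasirox (SE 0.08) and 1.07 under OICR623 (SE 0.10), or 2.50-fold, 2.68-fold and 2.10-fold. MOB3A stood 11th, 13th and 13th in the order of differences under these compounds.

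HUNK (transcript cluster 8068180) differed least among the compounds. Its log2 signal was 9.49, 9.50, 9.46 and 9.17 under DFO, 9.63, 9.49 and 9.26 under Deferasirox and 9.55 and 9.36 under OICR623, against 8.40, 8.46, 8.14 and 7.99 under DMSO. The lowest HUNK value of the DFO, Deferasirox and DMSO groups was in each case that of the low-level array, and the treated arrays still lay above all DMSO arrays. The log2 difference from DMSO was 1.16 under DFO (SE 0.07), 1.25 under Deferasirox (SE 0.08) and 1.15 under OICR623 (SE 0.09), or 2.23-fold, 2.38-fold and 2.21-fold. Its places in the order of differences were 15th, 16th and 11th.

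**Figure D1:**
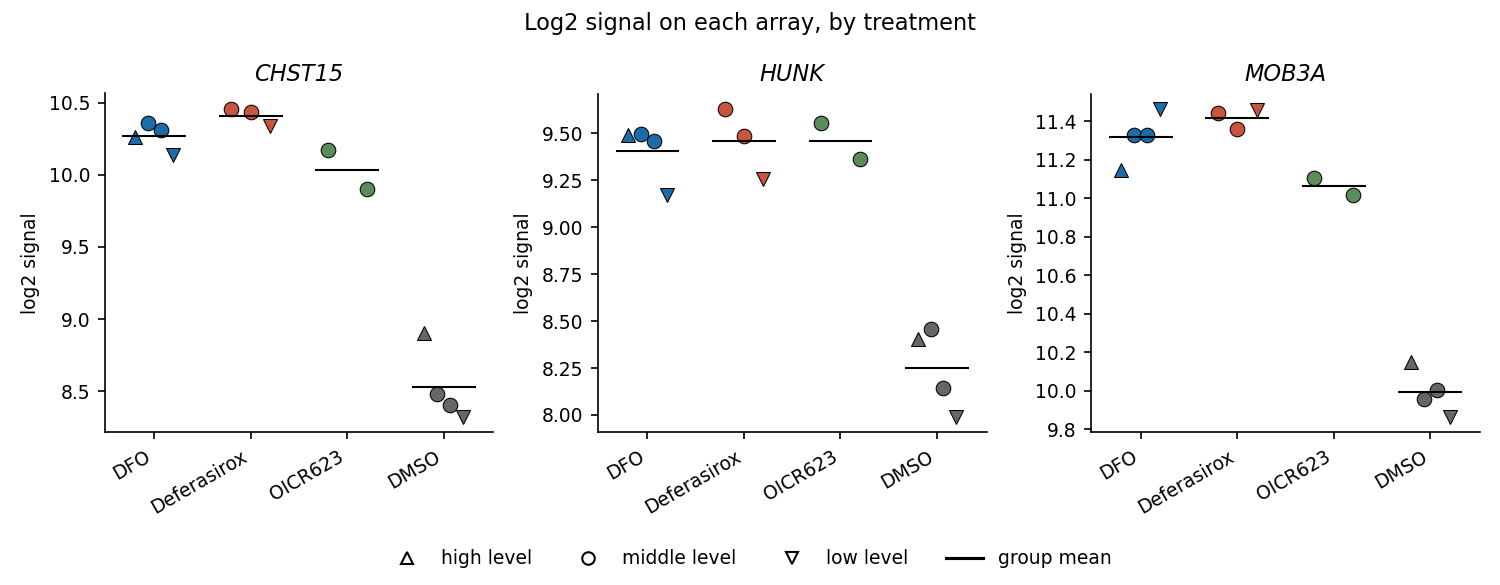
Log2 signal of CHST15, HUNK and MOB3A on each of the 13 arrays, by treatment. Points are arrays, with the shape giving the level of the array median, and bars are group means. All treated arrays lie above all DMSO arrays for each gene, and the genes were chosen as higher on these arrays.

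Subtracting each array's own median left the treated arrays above the DMSO arrays as well. On that scale the lowest treated value was 3.09 for CHST15, against a highest DMSO value of 1.81; for HUNK these were 2.32 and 1.79, and for MOB3A 3.97 and 3.32. Each of these lowest treated values belonged to DFO 1, the treated array of the high level. For MOB3A this array also lay below both OICR623 arrays (4.45 and 4.33), so OICR623 and DFO overlapped on this scale. Group SDs on this scale lay between 0.0096 (CHST15, Deferasirox) and 0.42 (MOB3A, DFO). Without the subtraction, group SDs of the log2 signal lay between 0.05 (MOB3A, Deferasirox) and 0.26 (CHST15, DMSO), well below the differences from DMSO. The genes were chosen by a test on these same signals, which favours a small spread beside the difference, so this largely follows from the choice.

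Within each level the treated arrays were higher too. For DFO minus DMSO, CHST15 differed by 1.82 in the low level, 1.89 in the middle level and 1.36 in the high level, and MOB3A by 1.60, 1.35 and 1.00. HUNK gave 1.18, 1.18 and 1.09, the closest together of the 3 genes. Inside the middle level, however, its same-numbered arrays differed by 1.04 (number 2) and 1.32 (number 3). The genes therefore cannot be ranked by how far their difference varies with the level. Deferasirox minus DMSO was 2.02 in the low and 2.01 in the middle level for CHST15, 1.27 and 1.26 for HUNK and 1.59 and 1.42 for MOB3A. OICR623 was present in the middle level alone, where its differences from DMSO were 1.59 for CHST15, 1.16 for HUNK and 1.08 for MOB3A.

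**Figure D2:**
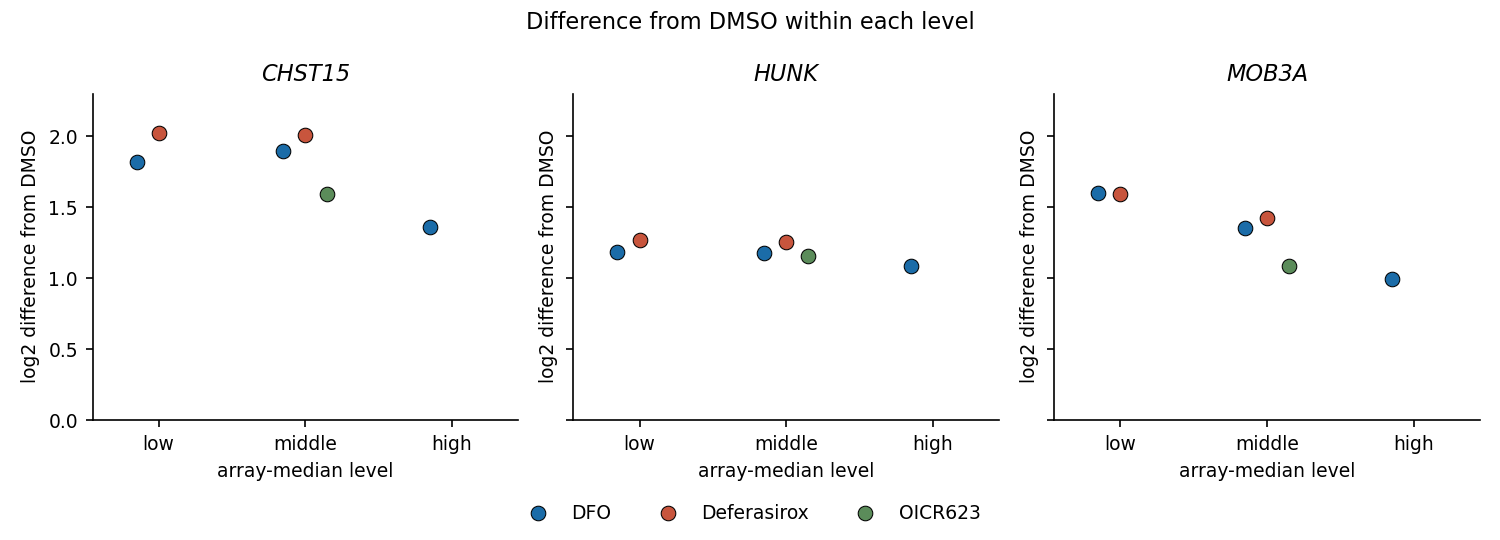
Log2 difference of each compound from DMSO, computed within each level of the array medians (low, middle, high). Points are differences of means within the level, of 1 array a group in the low and high levels and 2 a group in the middle level; the lowest is MOB3A in the high level, at 0.996.

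The rule that chose the genes asked for a limma adjusted p under 0.05 against DMSO, with 1 mean per group and no block, under all 3 compounds, in the upward direction. It held for 7 genes, the others being ARRDC3, DDIT4, ERRFI1 and EGLN3. The largest of the 3 adjusted p values was 0.0070 for CHST15, 0.031 for MOB3A and 0.049 for HUNK, and it came from OICR623 each time. HUNK was the last gene inside. ADM, a vasodilator peptide gene, was the nearest outside at 0.070, followed by the iron- and hypoxia-responsive gene NDRG1 at 0.187.

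The comparisons between compounds were not part of that rule and were tested, at doses that differed. They are not free of the choice. They reuse the treated arrays, and the rule left out genes that were not called higher under every compound, which favours small differences between compounds. None of the 9 tests (3 genes, 3 pairs of compounds) passed in limma over all genes, with adjusted p values from 0.294 to 0.998; unadjusted p was under 0.05 in 3 of them with the block and in 0 without it. Over all 18404 genes, unadjusted p was under 0.05 for 1044 genes in OICR623 against DFO, 1847 in Deferasirox against DFO and 1571 in OICR623 against Deferasirox. After adjustment 0.158% of genes were called higher and 0.0109% lower for OICR623 against DFO, 0.0272% and 0.0163% for Deferasirox against DFO, and 0.0598% and 0.0272% for OICR623 against Deferasirox. CHST15 differed by -0.42 on the log2 scale for OICR623 against Deferasirox (SE 0.12, interval -0.68 to -0.17, adjusted p = 0.294 by limma). MOB3A differed by -0.35 in the same pair (SE 0.10, interval -0.57 to -0.13, limma adjusted p = 0.328) and by -0.25 for OICR623 against DFO (interval -0.47 to -0.03, limma adjusted p = 0.809). The unadjusted p values of these 3 differences were 0.0040, 0.0055 and 0.028 with the block, and 0.0758, 0.0514 and 0.131 without it.

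For HUNK the differences between compounds were -0.01 for OICR623 against DFO (interval -0.21 to 0.19), 0.09 for Deferasirox against DFO (-0.08 to 0.26) and -0.10 for OICR623 against Deferasirox (-0.31 to 0.10). Its fold between any 2 compounds thus lay within 0.809 and 1.20 by these intervals. That bound rests on the block: the SEs of the 3 differences were 0.09, 0.08 and 0.09 with it and 0.19, 0.17 and 0.20 without it. The choice of HUNK as higher under all 3 compounds bears on the bound as well. CHST15 differed by 0.21 for Deferasirox against DFO (-0.01 to 0.42) and by -0.22 for OICR623 against DFO (-0.47 to 0.03), and MOB3A by 0.10 for Deferasirox against DFO (-0.09 to 0.29). Single arrays moved the last 2 of these: CHST15 stood at -0.0824 without OICR623 2 and -0.35 without OICR623 1, and MOB3A at 0.0447 without DMSO 1 and 0.176 without DFO 4. In order of level, CHST15 and MOB3A ran from Deferasirox through DFO and OICR623 to DMSO, and no neighbouring compounds in that order differed by the test. The treated arrays of HUNK overlapped among all 3 compounds. Across all alternatives in the processing, the adjusted p values of these 9 tests lay between 0.0795 and 1.

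**Figure D3:**
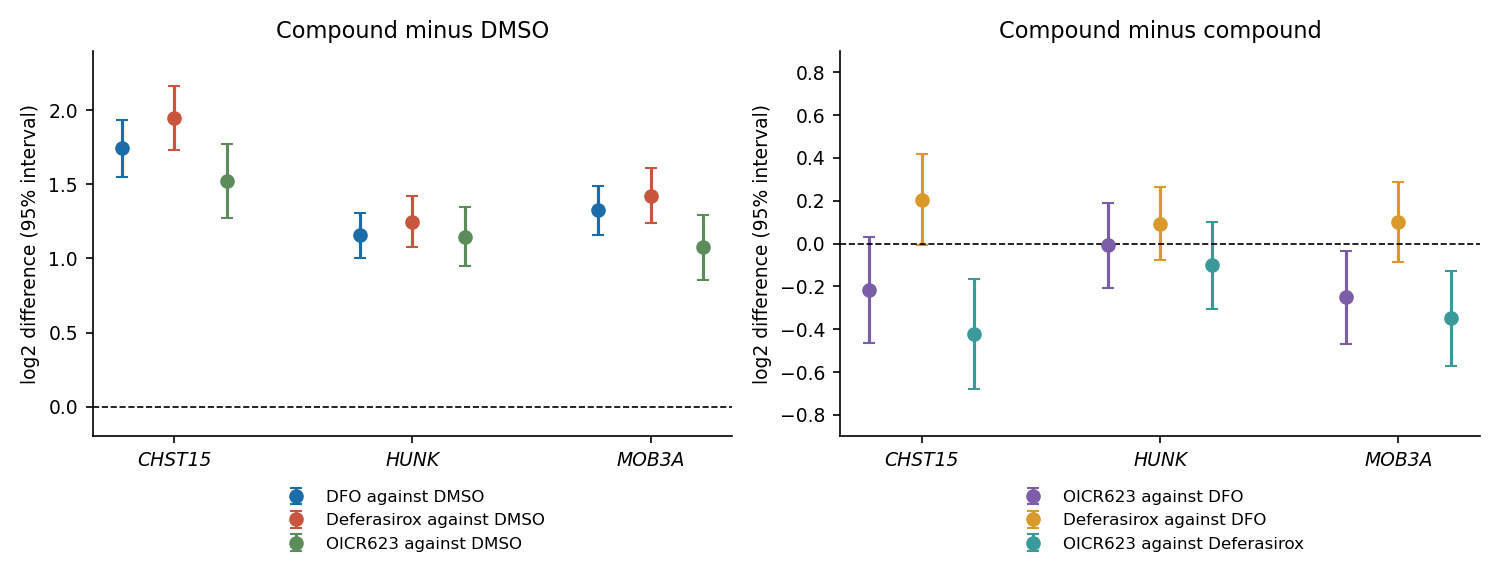
Log2 differences with 95% intervals from the limma fit with the level as a block: each compound minus DMSO (left) and compound minus compound (right), for CHST15, HUNK and MOB3A. Differences from DMSO lie between 1.07 and 1.95, and those between compounds between -0.42 and 0.21.

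Other genes of the same pathways were set beside the 3 genes. The 3 genes were chosen as higher and the listed genes were not chosen by that rule, so a gap between them was built in by the choice. Of 147 listed genes 142 were measured. Under DFO 1 of them was called higher (0.704%, background 1.89%) and 3 lower (2.11%, background 2.72%), and under Deferasirox 7 were called higher (4.93%, background 2.83%) and 1 lower (0.704%, background 3%). Under OICR623 limma called 0 of 142, where the background was 0.337% higher and 0.397% lower. With the block, 20 of the 142 genes had an unadjusted limma p under 0.05 under DFO, 27 under Deferasirox and 11 under OICR623. Over all 18404 genes the same counts were 2891, 3304 and 1963. The median log2 difference of the 142 genes was 0.02 under DFO, 0.01 under Deferasirox and 0.02 under OICR623, beside 0.00 over all genes for each compound. Without the block 0 of 142 were called for any compound, with 0 at an unadjusted limma p under 0.05. Over all 18404 genes without it, that p was under 0.05 for 202 under DFO, 307 under Deferasirox and 104 under OICR623. With so few over all genes, the 0 is not read as a trait of the listed genes. Every call in the next paragraphs rests on the block.

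With CHST15 left aside, since it was chosen as higher and not tested, no gene of chondroitin sulfate chain synthesis or sulfation was called. Of 15 genes that build the chondroitin sulfate chain, limma called 0 under each compound (unadjusted, 0 under DFO, 5 under Deferasirox and 0 under OICR623). Their differences lay between -0.15 and 0.13 under DFO, -0.27 and 0.29 under Deferasirox and -0.11 and 0.13 under OICR623. Of the 12 other genes of its sulfation, among them the carriers and synthases of the sulfate donor, 0 were called (unadjusted, 1 under DFO, 0 under Deferasirox and 0 under OICR623), with differences between -0.20 and 0.12. CHST11, which sulfates the same sugar at another position, had a log2 signal of 12.40, 12.04, 12.02 and 11.89 under DFO, 12.02, 11.96 and 11.81 under Deferasirox and 12.08 and 11.99 under OICR623, against 12.44, 12.09, 11.98 and 11.96 under DMSO. Its arrays overlapped between all groups, and its differences of -0.03, -0.08 and -0.02 from DMSO were not called. CHST3 stood at 0.09, 0.12 and 0.05, CHST7 at -0.03, -0.01 and 0.06, CHST12 at 0.04, 0.09 and -0.02 and CHST13 at 0.05, -0.07 and -0.12 under DFO, Deferasirox and OICR623. CHST14 and UST, which act on dermatan sulfate and on uronic acid, lay between -0.05 and 0.07.

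Among 8 CHST genes that modify other glycans, CHST1, a keratan sulfate sulfotransferase, was the 1 called. It rose by 0.32 under Deferasirox (SE 0.07, limma adjusted p = 0.018), or by 0.15 with the replicate number as a block. That block sets Deferasirox 1, Deferasirox 3 and OICR623 1 beside DMSO arrays of another level, here and below. Of 22 measured genes for heparan sulfate, the chain made on the same linker, HS3ST3A1 fell by 0.17 under DFO (adjusted p = 0.029) and 0 were called under Deferasirox and OICR623 (unadjusted, 3 and 1). Of 20 measured core proteins that carry chondroitin sulfate, limma called 0 under any compound (unadjusted, 0 under DFO, 0 under Deferasirox and 1 under OICR623).

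For HUNK, 15 of the 16 other AMPK and AMPK-related kinase genes were measured. SNRK rose by 0.28 (SE 0.05, adjusted p = 0.013) and MARK4, a microtubule-affinity kinase gene, by 0.17 (SE 0.04, adjusted p = 0.043) under Deferasirox. Without the block these stood at 0.0975 and -0.0411, and with the replicate number as a block at -0.0351 and -0.14. Limma called 0 of the 15 under DFO (unadjusted 4) and 0 under OICR623 (unadjusted 1). The differences of the catalytic subunit genes PRKAA1 and PRKAA2 lay between -0.01 and 0.16. Of 12 regulatory subunit and upstream kinase genes, PRKAB2, a beta subunit of AMPK, fell by 0.20 under DFO (SE 0.04, adjusted p = 0.012) and by 0.24 under Deferasirox (SE 0.04, adjusted p = 0.0064), and stood at -0.19 under OICR623 (adjusted p = 0.14). Its Deferasirox difference was -0.47 with the replicate number as a block, and -0.13 after quantile normalization without the level block.

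For MOB3A, 5 of the 6 other MOB genes were measured, and limma called 0 of them under each compound (unadjusted, 0 under DFO, 0 under Deferasirox and 1 under OICR623). MOB3B, a paralog of MOB3A, had a log2 signal of 6.29, 6.29, 6.26 and 6.20 under DFO, 6.25, 6.14 and 6.10 under Deferasirox and 6.20 and 6.38 under OICR623, against 6.28, 6.20, 6.32 and 5.98 under DMSO. All 4 groups overlapped. The differences of MOB3B from DMSO were 0.07 (interval -0.06 to 0.19), -0.01 (-0.15 to 0.13) and 0.06 (-0.10 to 0.23) under DFO, Deferasirox and OICR623, and those of MOB3C, the other paralog, were 0.06, 0.02 and -0.01. MOB1A, MOB1B and MOB2 lay between 0.02 and 0.14.

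Of 23 measured MOB-linked kinase and Hippo genes, VGLL4, a TEAD cofactor, rose by 0.29 under DFO (SE 0.05, adjusted p = 0.0064) and WWTR1, the coactivator TAZ, by 0.25 under Deferasirox (SE 0.05, adjusted p = 0.012). WWTR1 stood at 0.11 without the block and 0.0248 with the replicate number as a block. Of 12 YAP targets 3 rose under Deferasirox: AMOTL2 by 0.27 (adjusted p = 0.020), F3 by 0.35 (adjusted p = 0.028) and CCN1 by 0.29 (adjusted p = 0.047). The muscle ankyrin repeat gene ANKRD1 fell by 0.40 under DFO (adjusted p = 0.047). Without the level block the Deferasirox differences were -0.0360 for AMOTL2, -0.33 for CCN1 and 0.15 for F3, and with the replicate number as a block -0.15, -0.44 and -0.0080. Without Deferasirox 3 they were 0.21 for F3 and 0.19 for CCN1.

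**Figure D4:**
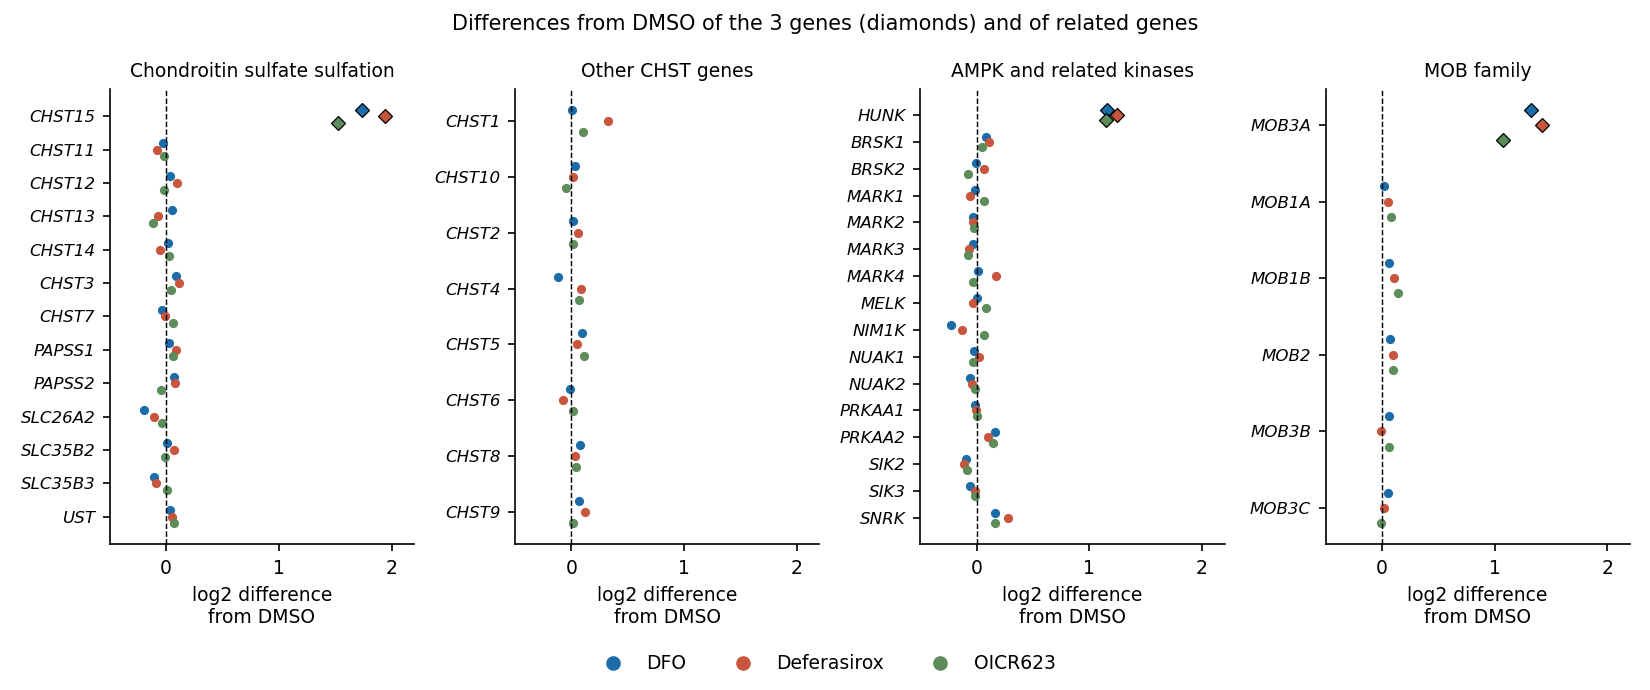
Log2 difference from DMSO of CHST15, HUNK and MOB3A (diamonds) and of the other measured genes of 4 lists (circles), by compound. The diamonds, chosen as higher on these arrays, lie between 1.07 and 1.95, and the circles between -0.23 and 0.32.

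The 3 nearest measured genes on each side of each gene were compared, in the order of the RefSeq annotation (GRCh38.p14). Of these 18 neighbours MKNK2, which lies next to MOB3A on chromosome 19 without overlapping it, was the 1 called. Over all genes 1.89% were called higher and 2.72% lower under DFO, 2.83% and 3% under Deferasirox and 0.337% and 0.397% under OICR623. A single called neighbour is thus not read as a result about the locus. MKNK2 encodes a MAP kinase-interacting kinase that phosphorylates the translation factor eIF4E. Its log2 signal was 11.42, 11.15, 11.18 and 11.21 under DFO, 11.19, 11.16 and 11.25 under Deferasirox and 11.08 and 10.94 under OICR623, against 11.04, 10.43, 10.35 and 10.32 under DMSO. DMSO 1, of the high level, lay above OICR623 2, and the DFO and Deferasirox arrays did not overlap with DMSO. MKNK2 rose by 0.71 under DFO (SE 0.07, adjusted p = 0.00019), by 0.78 under Deferasirox (SE 0.08, adjusted p = 0.00022) and by 0.60 under OICR623 (SE 0.09, adjusted p = 0.017). Without the block it was not called (adjusted p = 0.236, 0.52 and 1), and with the replicate number as a block it was called under DFO but not under Deferasirox (adjusted p = 0.0967) or OICR623 (adjusted p = 0.305). The OICR623 call was also lost without OICR623 1 (0.53), OICR623 2 (0.66), DMSO 2 (0.60) or DMSO 3 (0.56), and with centred array medians (adjusted p = 0.148), quantile normalization (adjusted p = 0.405) or all rows of the table (adjusted p = 0.0685).

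IZUMO4, the neighbour on the other side of MOB3A, differed by 0.08, 0.09 and 0.08 under DFO, Deferasirox and OICR623. Beside CHST15, the ornithine aminotransferase gene OAT stood at 0.14, 0.15 and 0.16 and the carboxypeptidase-like gene CPXM2 at 0.07, -0.03 and 0.01. Beside HUNK, SCAF4 stood at 0.05, 0.04 and -0.01 and MIS18A at -0.02, 0.04 and -0.06. None of these was called.

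**Figure D5:**
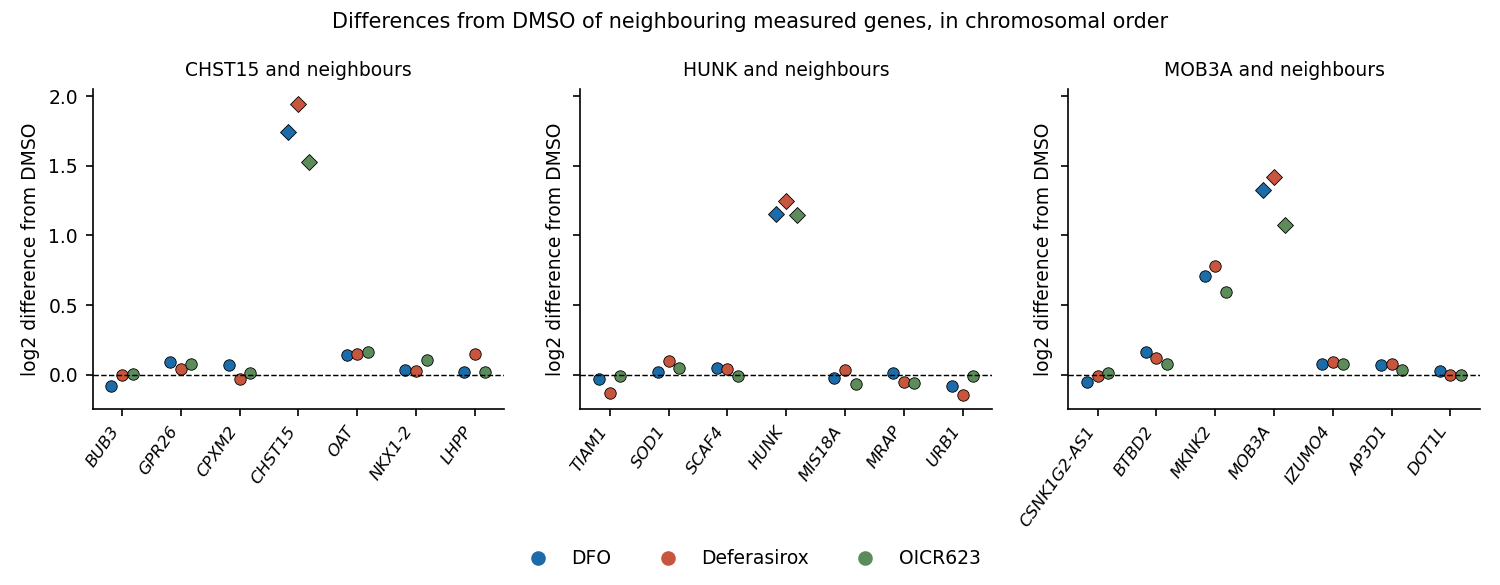
Log2 difference from DMSO of CHST15, HUNK and MOB3A (diamonds) and of the 3 nearest measured genes on each side (circles), in chromosomal order, by compound. MKNK2 lies between 0.60 and 0.78, and the other neighbours lie between -0.14 and 0.16.

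Likeness of pattern was measured as the root mean square difference of log2 values over the 13 arrays, after the level terms and the mean of each gene had been removed. The arrays are those that chose the 3 genes, so this is a description. Nearest to CHST15 were BHLHE40, a transcriptional repressor gene (0.118), EGLN3, a HIF prolyl hydroxylase gene (0.121), ERRFI1, an inhibitor of the EGF receptor (0.125), ADM (0.172) and NDRG1 (0.204). Nearest to HUNK were TGFA, a ligand of the EGF receptor (0.107), the inositol transporter gene SLC5A3 (0.122), NDRG1 (0.134), the glucose transporter gene SLC2A3 (0.138) and MOB3A itself (0.144). Nearest to MOB3A were NDRG1 (0.0742), the lysyl oxidase-like gene LOXL2 (0.123), the histone demethylase gene KDM3A (0.128), TGFA (0.130) and FOSL2, an AP-1 subunit gene (0.135). The median distance of all genes was 0.832 from CHST15, 0.558 from HUNK and 0.620 from MOB3A. CHST15 lay 0.298 from HUNK and 0.227 from MOB3A.

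NDRG1, in all 3 of these sets, had a log2 signal of 12.11, 11.88, 11.90 and 11.91 under DFO, 11.99, 11.99 and 12.07 under Deferasirox and 11.71 and 11.74 under OICR623, against 11.13, 10.55, 10.42 and 10.42 under DMSO. Its differences from DMSO, 1.32, 1.497 and 1.21, stood beside 1.32, 1.42 and 1.07 for MOB3A, with the lowest value under OICR623 for both genes.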

How the data were processed

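RNA from 13 cultures was hybridised, 1 array each. The authors deposited log2 signals for transcript clusters, judged from the range of the values. The submitters' processing notes list GCRMA and limma, with neither version nor role, and the genome build is not given in the sources used here. Of 32321 rows, 19158 were named by 1 symbol, 1388 by several and 11775 by none; 19128 matched the RefSeq gene table (GRCh38.p14) by Entrez identifier. The row with the highest mean was kept per gene, which left 18404; each of the 3 genes has 1 row. No dim genes were removed. Precision is limited by how many arrays each group has.

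Levels were split where sorted array medians lay over 0.05 apart. limma 3.58.1 (R 4.3.3) fitted group means plus level over all arrays, with empirical Bayes moderation and Benjamini-Hochberg adjustment over all genes at 0.05; it was tested on simulated data. Named genes were the 3 genes, the other MOB and chondroitin sulfate sulfotransferase genes, up to 4 called genes per list by smallest adjusted p, 3 neighbours on each side, the 5 nearest genes by pattern and those beside the selection threshold. The genes and lists were chosen with earlier results of these data known.

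Same-numbered DFO and DMSO arrays deviated together (correlations across genes of 0.945, 0.662, 0.738 and 0.788), but share a level too; numbers of other group pairs did not meet this check. With the replicate number as a block, 78 genes were called for DFO against DMSO over all arrays. For Deferasirox and OICR623 that block sets some arrays of different levels together, so number and level are mixed in its values.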

Additional observations from a re-analysis of the deposited data

Results flagged for a closer look

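Of 12 sets of 4 arrays examined (3 genes, DFO and DMSO, on 2 scales), 3 held an array far from the others. The gap relative to the range of the set was then above Dixon's 95% critical value. Chance gives about 1 in 20 for independent sets of like arrays. These sets share arrays, repeat them on 2 scales and mix levels, so their count cannot be read against that rate. HUNK measured 9.17 in log2 signal on DFO 4, against 9.46 for the nearest DFO array, a gap ratio of 0.892. After subtraction of the array median, CHST15 stood at 3.09 on DFO 1, against 3.62 for the nearest DFO array (ratio 0.87), and MOB3A at 2.96 on DMSO 1, against 3.29 for the nearest DMSO array (ratio 0.919). DFO 4 is the DFO array of the low level, and DFO 1 and DMSO 1 are the arrays of the high level; a single array and its level cannot be told apart here. Without DFO 4 the HUNK difference of DFO from DMSO was 1.15, without DFO 1 that of CHST15 was 1.87, and without DMSO 1 that of MOB3A was 1.43.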

How the results depend on the processing

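Against DMSO, CHST15, HUNK and MOB3A were higher in all 201 values computed under the alternatives, between 1.02 and 2.07 on the log2 scale, and 8 of these moved by more than the residual SD. The alternatives reuse the arrays that chose the genes, and the fit without a block is the one that chose them. The shared sign was thus largely fixed by the choice and is no further evidence of a rise. CHST15 under DFO was 1.89 in the middle level only. HUNK under Deferasirox was 1.13 with a replicate block, 1.37 with centred array medians and 1.39 after quantile normalization, and under OICR623 it was 1.31 with centred medians and 1.34 after quantile normalization. MOB3A under Deferasirox was 1.59 with centred medians and 1.59 after quantile normalization. Of 198 values between compounds 8 changed sign, all for HUNK, and 0 were called by limma (smallest adjusted p 0.0795): OICR623 against DFO was 0.054 without the level block, 0.14 centred and 0.18 after quantile normalization, and between -0.10 and 0.0875 with 1 array left out; Deferasirox against DFO was -0.0286 with the replicate block; OICR623 against Deferasirox was 0.00052 without the level block. The cause was not tested.

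Counts of called genes depended on the level block. For DFO, Deferasirox and OICR623 against DMSO limma called 847, 1074 and 135 genes with it, 45, 43 and 7 without it, 78, 127 and 10 with the replicate block, 154, 170 and 19 centred, 161, 185 and 25 after quantile normalization and 274, 326 and 81 in the middle level only. OICR623 gave 203 without genes below the 0.25 quantile of mean signal, 338 with an intensity trend and 74 over all rows. Between compounds (OICR623 against DFO, Deferasirox against DFO, OICR623 against Deferasirox) 31, 8 and 16 genes were called with the level block, 0, 0 and 0 without it or with the replicate block, 9, 0 and 0 centred, 14, 0 and 0 after quantile normalization and 58, 85 and 119 with the trend. The last of these pairs gave 59 without those dim genes and 7 in the middle level, and Deferasirox against DFO gave 35 and 0. With 1 array left out the 6 counts ranged over 494 to 846, 546 to 1066, 33 to 173, 8 to 32, 0 to 10 and 0 to 26. The lowest came without DFO 4, Deferasirox 3, OICR623 1, OICR623 2, Deferasirox 1 and OICR623 1.

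Of the pathway genes 4 were called under DFO and 8 under Deferasirox, and 0 and 0 without the level block, with the replicate block, centred, after quantile normalization or in the middle level, 8 and 15 with the trend and 2 and 3 over all rows. DFO gave 2 with the replicate block on DFO and DMSO arrays alone. Without the high level, an alternative chosen after seeing the data, 2 and 5 were called. Leaving out 1 array gave 1 to 4 and 2 to 7, and 0 for OICR623. VGLL4 and, under Deferasirox, PRKAB2 were called with every single array left out; the other pathway calls were each lost without at least 1 array, most often DMSO 4 or Deferasirox 3. Under Deferasirox some signs turned. Without the level block and with the replicate block, MARK4 was -0.0411 and -0.14, AMOTL2 -0.0360 and -0.15 and CCN1 -0.33 and -0.44. CCN1 was also -0.17 centred and -0.14 after quantile normalization. With the replicate block SNRK was -0.0351 and F3 -0.0080. The replicate block sets Deferasirox 1 and Deferasirox 3 beside DMSO arrays of another level, so number and level cannot be told apart in its values.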
